A study of Mus musculus with 12 samples.

Results

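Scavenger and phagocytic uptake receptors are the surface and lysosomal proteins with which macrophages recognise lipoproteins, dead cells and debris and carry them to the lysosome. Transcripts of 10 of them, *Mertk*, *Cd36*, *Msr1*, *Marco*, *Scarb1*, *Scarb2*, *Stab1*, *Timd4*, *Lrp1* and *Cd68*, were followed in cultured mouse microglia. They were chosen by name, and each was read from the row of the TPM table whose Ensembl identifier carries its symbol, which gave 10 of the 48623 genes listed. TPM is an abundance of transcripts per length, scaled to the same total in every library, so levels of different genes can be set side by side. There were 4 groups of 3 libraries: wild-type (WT) microglia left untreated, WT microglia given IL-4 at 20 ng/ml for 48 h, and microglia homozygous for the *Trem2* R47H knock-in (KI), untreated or given the same IL-4, all on a C57BL/6J background. The cells came from mixed glial cultures of neonatal cortex and hippocampus kept for 19 to 23 days, and treatment started from 24 h after isolation. Per the study's methods the WT and KI mice were littermates, and pups of KI litters were cultured separately and genotyped afterwards. The knock-in allele also lowers *Trem2* expression in mice through altered splicing, so it is a model of reduced *Trem2* as well as of the substitution. Each library name carries a number, T13, T33 or T43 for WT and T15, T22 or T32 for KI, shared by an untreated and an IL-4-treated library and read here as the culture.

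The receptors fall into families that differ in structure and cargo. Class A scavenger receptors bind modified lipoproteins and microbial surfaces through collagen-like trimers, class B receptors are hairpin proteins that move lipids across membranes or through lysosomes, and efferocytosis receptors recognise phosphatidylserine on dying cells directly or through a bridging ligand. In brain macrophages several of them take part in the uptake of amyloid, myelin debris and apoptotic neurons, and IL-4 is a cytokine of the alternative macrophage state.

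*Cd36* was the only receptor of the 10 whose level passed the test for IL-4, where it rose by 1.74 ± 0.23 on the log2(TPM + 1) scale (SE of the fit). None passed the test for genotype. *Msr1* came nearest, with KI libraries lower by 0.90 on the same scale (log2 difference -0.90 ± 0.19, adjusted p = 0.0637). Differences were tested with limma over the 11204 genes whose mean log2(TPM + 1) was above 1.5, with adjusted p-values over all of them and a threshold of 0.05. The genotype test was a joint F-test of the KI difference averaged over treatments and of its change with treatment. The IL-4 test was likewise joint, over the averaged IL-4 difference and its change with genotype. The adjusted p beside an averaged difference is therefore not a test of that difference alone. By this rule 1.65% of all genes were called for genotype and 0.893% for IL-4, against 0 of 9 and 1 of 9 of the receptors above the filter. For the interaction, a difference of the IL-4 response between KI and WT, no gene passed in limma (0.0%), with 357 genes (3.19%) at an unadjusted p under 0.05 and 4 of 29745 genes (0.0134%) past the threshold when no filter was used. *Timd4* lay below the filter and was read from that fit.

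Between 20750 and 23945 genes were above 0 in a library, and the 10 most abundant genes took 20.5% to 33.1% of the TPM. The reads behind each value are unknown, since TPM keeps no depth. The microglial identity of the cultures was checked with 18 marker genes, of which none was listed at 0 in any library, although *P2ry12* reached no more than 31.9 TPM and *Siglech* ranged from 3e-06 to 5.51 TPM. The marker sum ranged from 29421 to 31360.4 TPM in untreated WT, 33399 to 39443 TPM in WT after IL-4, 12909 to 25238 TPM in untreated KI and 21658 to 28919 TPM in KI after IL-4, so each KI group lay below its WT group. All 17 microglia markers tested had a KI difference below 0, with a median of -0.64, and 5 of them fell, beside 0.357% of all genes. These 5 calls each held in 0 to 2 of 6 fits that left out a culture, and those of *Csf1r*, *Itgam* and *Fcrls* were lost with culture as a block. Of 8 astrocyte markers tested, all had a KI difference above 0, as 63.1% of all genes had, with a median of 1.82, and none passed the test. Their sum was 167 to 691 TPM in untreated WT and 220.2 to 4788 TPM in untreated KI, with the highest values in culture T15. Of 6 fibroblast and mural markers tested, *Acta2*, *Cnn1* and *Tagln* rose in KI, beside 1.29% of all genes, with the calls held in 5, 1 and 4 of 6 fits that left out a culture and that of *Cnn1* lost with culture as a block, whereas *Lyve1* of border macrophages and *Cldn5* and *Tek* of endothelium were listed at 0 in all 12 libraries. Of the other markers *Olig1*, 1 of 4 oligodendrocyte lineage genes tested, rose in KI, a call held in 1 of 6 fits that left out a culture and lost with culture as a block, and neither of 2 neuron genes passed a test. With IL-4 *C1qa* of the microglia markers rose and *Cx3cr1* fell, and *Flt1*, 1 of 2 endothelial genes tested, and *Mrc1* and *Ms4a7*, 2 of 5 border macrophage genes tested, rose, beside 0.75% of all genes that rose and 0.143% that fell. Of these the calls of *Flt1* and *Mrc1* held in all 6 fits that left out a culture, those of *Cx3cr1* and *Ms4a7* in 1 and that of *C1qa* in 2. In such bulk libraries fewer microglia and less receptor RNA per microglial cell cannot be told apart. By immunostaining, the paper reports no substantial difference in the share of microglia between WT and homozygous KI cultures, untreated or with IL-4. These libraries carry no such count. The median KI difference over all genes tested was 0.13, and differences relative to it are given where a result turns on them. *Retnla*, *Chil3*, *Mrc1*, *Gatm* and *Socs1*, which were listed as a check of IL-4 exposure, all rose, though the *Chil3* call held in 1 of 6 fits that left out a culture.

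Levels of the receptors spanned several orders of magnitude. Over the 12 libraries *Cd68* was the most abundant with a mean of 2656 TPM, followed by *Cd36* at 481, *Msr1* at 158, *Stab1* at 103, *Lrp1* at 82.7, *Scarb2* at 66.3, *Mertk* at 46.9, *Scarb1* at 36.4, *Marco* at 17.1 and *Timd4* at 0.149 TPM. Only the step from *Cd68* to *Cd36* and the step from *Marco* to *Timd4* separated ranges that did not overlap across the 12 libraries. The other neighbours in that order overlapped, and *Stab1* exceeded *Lrp1*, for instance, in 9 of 12 libraries. *Cd68* alone supplied 62.6% to 83.7% of the summed TPM of the 10 receptors. Spread over the libraries was widest for *Cd36*, with a coefficient of variation of 62.6%, and for *Marco* at 55.0%, among the 9 receptors above the filter, and narrowest for *Lrp1* at 16.6% and *Scarb1* at 17.2%.

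**Figure D1:**
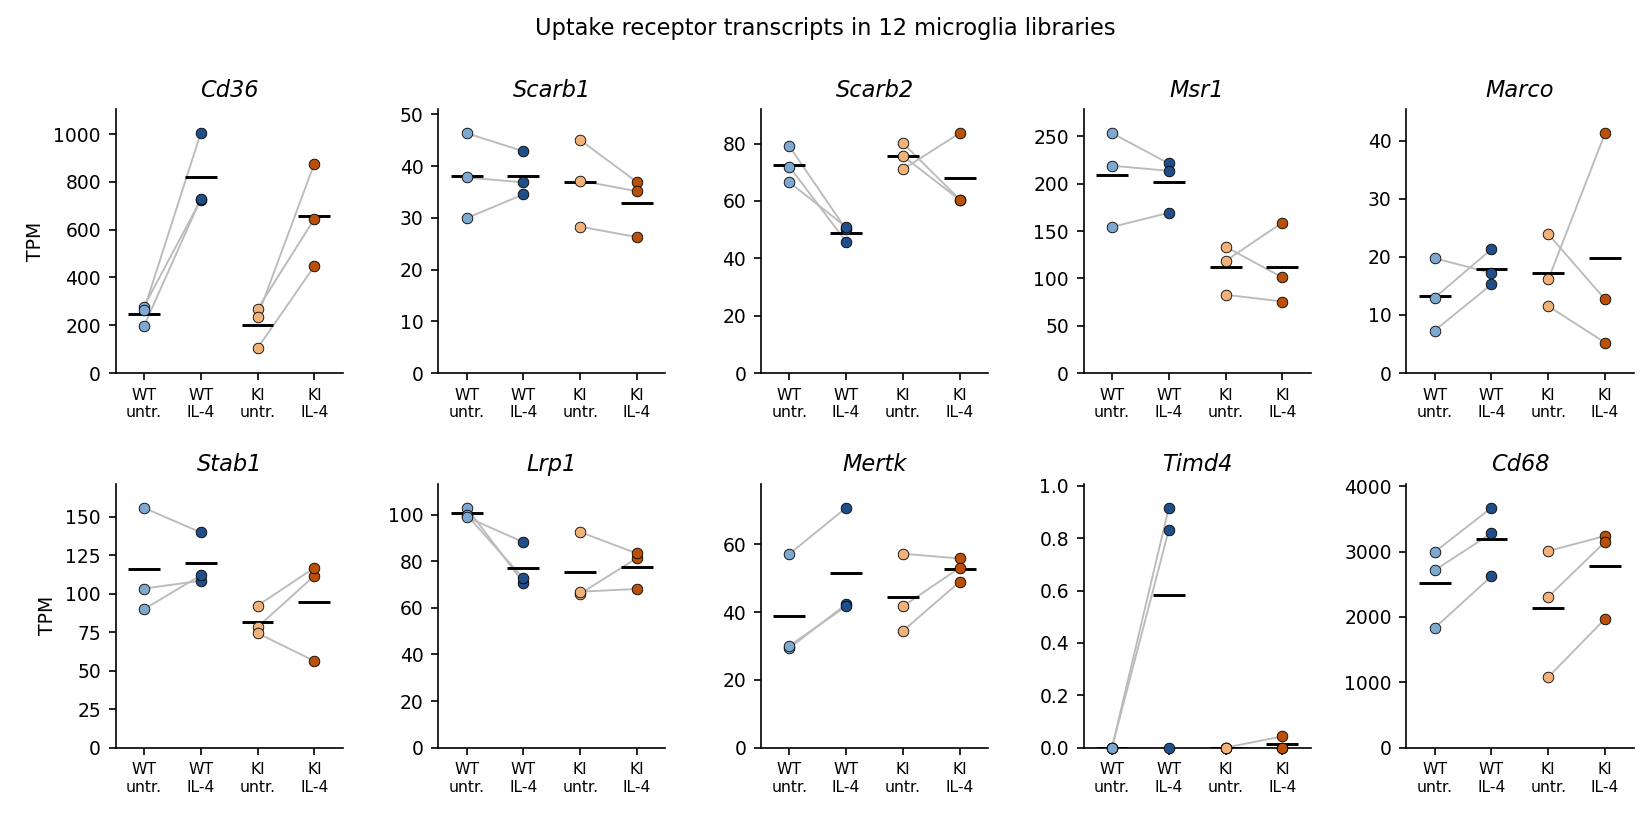
TPM of each of the 10 receptors (linear vertical axes, separate for each gene) in untreated and IL-4-treated WT and KI microglia. Points are libraries, grey lines join the libraries of a culture and black bars are group means of 3 libraries. *Cd36* is higher after IL-4 in all 6 cultures, *Msr1* is lower in KI than in WT in both treatments, and *Timd4* is at or near 0 throughout.

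Among the class B receptors, *Cd36* encodes a fatty acid and oxidised lipoprotein receptor that also binds thrombospondin and amyloid. Untreated it measured 278 TPM in T13, 263 TPM in T33 and 195 TPM in T43, the WT cultures, and after IL-4 it measured 724, 1003 and 728 TPM in the same order, which is kept below. In KI cultures T15, T22 and T32 it measured 267, 104 and 236 TPM untreated and 645, 447 and 876 TPM after IL-4. Every IL-4-treated library lay above every untreated library of its genotype, a separation that 10.8% of genes showed upward in WT and 5.47% in KI. Group means rose from 245 ± 43.9 to 819 ± 160.1 TPM in WT and from 202 ± 86.9 to 656 ± 215 TPM in KI (SD, n = 3), which is 3.34-fold and 3.24-fold. The fitted log2 difference of 1.74 had a 95% interval of 1.25 to 2.23 (adjusted p = 0.00305), and *Cd36* ranked fortieth by p among all genes tested. Within each genotype the difference was 1.73 in WT (adjusted p = 0.0258, with 0.571% of genes called) and 1.75 in KI (adjusted p = 0.0286, with 0.402% called). The interaction was 0.02 with an interval of -0.96 to 1.00, an interval that leaves room for an IL-4 response in KI well below or above that in WT. The smallest IL-4 differences were those of T15 (2.41-fold) and T13 (2.61-fold) and the largest that of T22 (4.32-fold), which started from the lowest untreated level. By genotype *Cd36* was lower in KI by 0.36 ± 0.23 on average, a log2 difference of -0.36 that did not pass (adjusted p = 0.664). After IL-4 the summed border macrophage markers were also higher, at 956 to 1226 TPM untreated and 1203 to 1853 TPM treated in WT, where the ranges overlapped. In KI the sums were 599 to 800 and 1040 to 2127 TPM. Most of the sum came from *Ms4a7* and *Pf4*. *F13a1* of the same list (mean 3.13 TPM) was lower after IL-4 in all 6 cultures, *Lyve1* was at 0 and *Cd163* at 0.0546 TPM or less. The part of these markers in the *Cd36* difference was not tested. The IL-4 call held in each of 6 fits that left out a culture, with adjusted p from 0.000698 to 0.0421, and in 6 of 7 other settings, the exception being no expression filter (0.113, with 0.205% of genes called). It was also lost with libraries scaled to an equal microglial marker sum, a setting chosen after the values were seen (1.39 ± 0.32, adjusted p = 0.196).

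*Cd36* lies on chromosome 5 at 17781690 to 17888801 (GRCm38, the build of all gene positions given here, minus strand), with 6 annotated transcripts, a longest coding sequence of 472 codons and more than a single start site. RefSeq promoter windows, 250 bases before to 50 bases after a start, were at hand for 8 of the 10 receptors. They were searched on both strands for TTCNNNNGAA, the spacing preferred by STAT6, the transcription factor that IL-4 activates, for TTCNNNGAA, the spacing of other STAT proteins, for AGGTCA, the core of nuclear receptor elements, and for GAGGAAGT, a PU.1 core. The *Cd36* window is printed because this is the receptor that rose and the sole one of the 8 with a match to the STAT6 spacing. It spans chr5:17835847-17836146 (GRCm38.p6, minus strand, written 5′ to 3′ along the gene), inside the annotated gene, and capitals mark a reverse AGGTCA whose first base is 228 before the start and the STAT6-type match whose first base is 21 into the transcript.
*Cd36* promoter window: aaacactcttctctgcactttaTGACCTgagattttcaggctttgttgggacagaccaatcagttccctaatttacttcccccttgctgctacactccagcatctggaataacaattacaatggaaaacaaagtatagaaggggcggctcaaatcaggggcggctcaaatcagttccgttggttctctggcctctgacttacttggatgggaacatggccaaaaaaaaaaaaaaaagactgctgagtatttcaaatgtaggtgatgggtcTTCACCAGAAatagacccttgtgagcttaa
Of 32851 such windows 6.95% hold TTCNNNNGAA and 16.3% hold AGGTCA. *Lrp1* has a TTCNNNGAA match (in 8.30% of windows) and *Timd4* an AGGTCA match, and none of the 8 has GAGGAAGT (in 3.20% of windows). A match is a description of the letters only, and these libraries carry no measurement of binding.

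**Figure D2:**
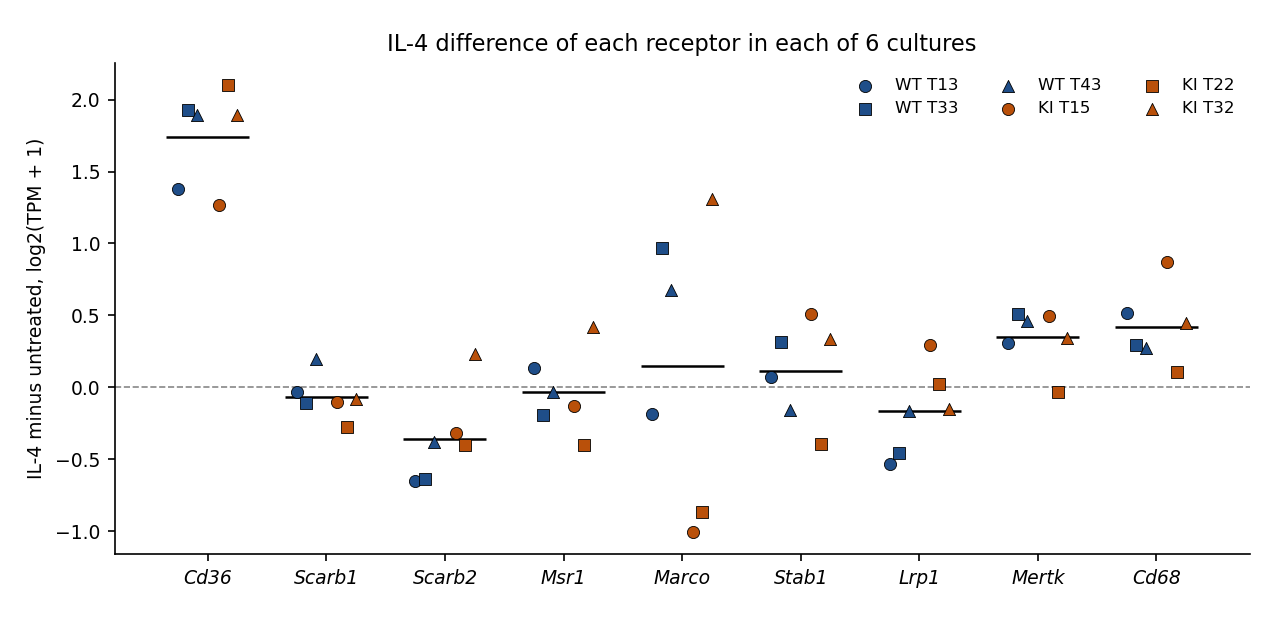
Difference in log2(TPM + 1) between the IL-4-treated and the untreated library of each of 6 cultures, for the 9 receptors above the expression filter. Blue symbols are WT and orange symbols KI cultures, and black bars are the fitted differences over both genotypes. *Cd36* lies between 1.27 and 2.10 in every culture, whereas most other receptors scatter around 0 and *Marco* ranges from -1.01 to 1.31.

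*Scarb1* (chromosome 5, 125277087 to 125341094), the HDL receptor that exchanges cholesteryl esters, varied little with either factor. It measured 37.8, 46.3 and 29.9 TPM in untreated WT and 36.8, 42.8 and 34.5 TPM after IL-4, and 28.3, 45.0 and 37.2 TPM in untreated KI and 26.3, 36.9 and 35.1 TPM after IL-4. All 4 groups overlapped. The genotype difference was -0.13 with an interval of -0.51 to 0.25 and the IL-4 difference -0.07 with an interval of -0.45 to 0.31, neither past the threshold (adjusted p = 0.885 and 1.00).

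*Scarb2* (chromosome 5, 92441314 to 92506833) encodes LIMP-2, a lysosomal membrane protein that delivers glucocerebrosidase to the lysosome. In WT it measured 79.1, 72.0 and 66.5 TPM untreated and 50.1, 45.8 and 50.9 TPM after IL-4. In KI it measured 75.7, 80.1 and 71.0 TPM untreated and 60.4, 60.5 and 83.6 TPM after IL-4. The WT groups did not overlap (4.93% of genes were separated downward in WT), and after IL-4 all 3 KI libraries lay above all 3 WT libraries (12.7% of genes were separated upward). The IL-4 difference was -0.56 in WT (adjusted p = 0.412) and -0.16 in KI (adjusted p = 0.919). Over both it was -0.36 ± 0.13 (adjusted p = 0.524), and the interaction of 0.39 ± 0.26 did not pass either (adjusted p = 1.00). *Scarb2* was lower after IL-4 in 5 of 6 cultures, and the exception was KI culture T32, in which the ratio was 1.18.

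*Msr1* (chromosome 8, 39581685 to 39642673) encodes scavenger receptor A, the class A receptor for modified lipoproteins and fibrillar amyloid. Untreated WT cultures measured 154, 253 and 219 TPM and untreated KI cultures 82.7, 133 and 118 TPM. After IL-4 the values were 169, 221 and 214 TPM in WT and 75.5, 101 and 159 TPM in KI. In each treatment the highest KI library lay below the lowest WT library, though the 2 sets of 6 libraries overlapped when treatments were joined. Downward separation was seen for 4.55% of genes when untreated and 5.79% after IL-4. Means were 209 ± 50.3 TPM in WT and 112 ± 26.1 TPM in KI untreated, and 201 ± 28.1 and 112 ± 42.8 TPM after IL-4 (SD, n = 3), which makes KI 0.534 and 0.555 of WT. The log2 difference of -0.90 had a 95% interval of -1.31 to -0.49, or -1.03 relative to the median of all genes. Its adjusted p was 0.0637, 0.127 in untreated libraries alone (0.91% of genes called) and 0.318 after IL-4 alone (0.0179% called). It passed only when the difference averaged over treatments was tested as 1 coefficient (0.0193, a test by which 5.13% of genes were called), and in none of the fits that left out a culture (0.0522 to 0.361). These fits took the libraries of a culture as independent. With culture as a replicate block the *Msr1* difference was -0.90 ± 0.20 (adjusted p = 0.0958). IL-4 made little difference to *Msr1*, at -0.03 with an interval of -0.45 to 0.38.

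The KI groups with low *Msr1* were also those with a low sum of microglia markers. Per 1000 TPM of the 18 markers, a measure chosen after the values were seen, *Msr1* came to 5.24 to 8.08 TPM in untreated WT and 5.29 to 6.41 TPM in untreated KI, and to 4.29 to 6.63 TPM in WT and 3.49 to 5.74 TPM in KI after IL-4. On that measure the WT and KI ranges overlapped in both treatments. The markers include genes that were themselves called lower in KI, such as *C1qb*, *Aif1* and *Csf1r*. The paper reports lower *C1qa* and *Csf1r* with reduced *Trem2* by RT-qPCR. Scaling by the marker sum is therefore not independent of genotype. With every library scaled to the same marker sum the *Msr1* genotype difference was -0.32 ± 0.19 (adjusted p = 0.346), whereas the median over all genes moved from 0.13 to 0.67, so that *Msr1* relative to it was -0.99 against -1.03 before. On the same scale, on which 0.544% of genes were called for IL-4, the *Cd36* difference was 1.68 relative to the median of all genes, with *C1qa* among the markers itself higher after IL-4. *Scarb2* then passed for genotype (0.83 ± 0.20, adjusted p = 0.0361), 1 of 9 receptors where 14.3% of all genes were called, and relative to the median its difference was 0.16. Without culture T15, in which the astrocyte markers were highest, the *Msr1* difference was -0.68 ± 0.17 (adjusted p = 0.171). The part of cell composition in these values was not tested further.

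**Figure D3:**
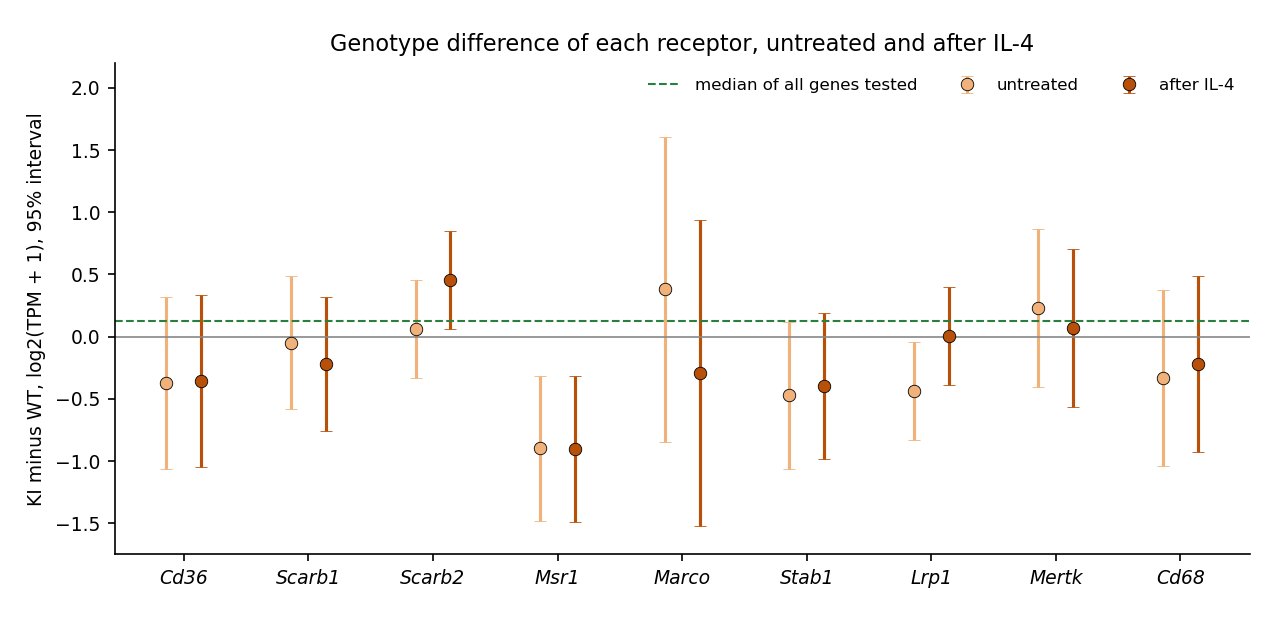
KI minus WT difference in log2(TPM + 1) for 9 receptors, in untreated libraries (light) and after IL-4 (dark), with 95% intervals of the limma fit (3 libraries per group). The dashed line marks the median of all genes tested for the difference averaged over both treatments, 0.13, not the median of either treatment alone. The intervals of *Msr1* lie below 0 in both treatments and the others include 0 in at least 1 of them.

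**Figure D4:**
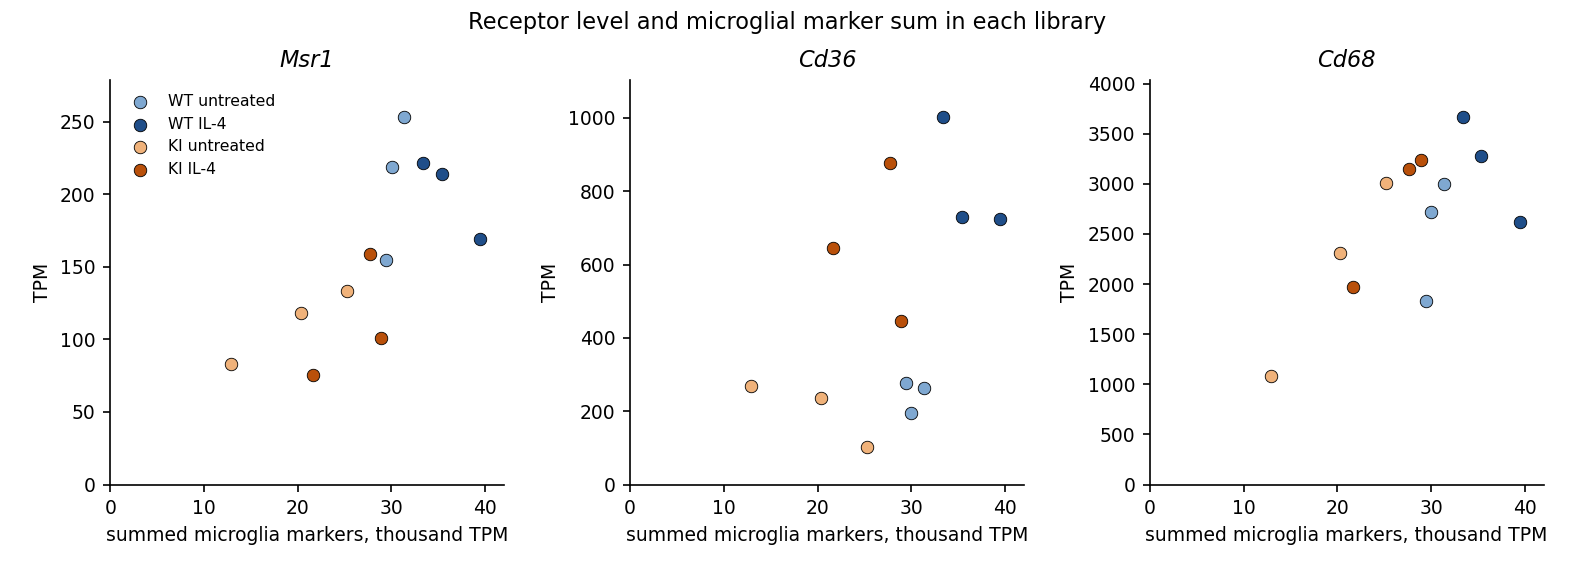
TPM of *Msr1*, *Cd36* and *Cd68* against the summed TPM of 18 microglia markers in each of the 12 libraries, coloured by group. KI libraries reach lower marker sums than WT, and *Cd36* is at or below 278 TPM in every untreated library and at or above 447 TPM in every IL-4-treated one.

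*Marco* (chromosome 1, 120474538 to 120505024), the other class A receptor, which binds bacteria and particles, was the least abundant receptor above the filter. It measured 19.8, 7.32 and 12.97 TPM in untreated WT and 17.2, 15.3 and 21.3 TPM after IL-4, and 11.5, 23.9 and 16.1 TPM in untreated KI and 5.23, 12.7 and 41.3 TPM after IL-4. The KI group after IL-4 had a coefficient of variation of 96.5%, because *Marco* was at 2.56 times its untreated level in T32 but at 0.454 and 0.530 times in T15 and T22. Its IL-4 difference of 0.15 had an interval of -0.72 to 1.02 and its genotype difference of 0.05 an interval of -0.82 to 0.91, so neither sign can be read from these cultures. The sign of the genotype difference turned under quantile normalization (-0.23) and median-ratio scaling (-0.09). The median of all genes itself moved from 0.13 to -0.06 and -0.01 under them. Relative to that median *Marco* was already at -0.08 in the main fit.

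*Stab1* (chromosome 14, 31139013 to 31168641) encodes stabilin-1, a clearance receptor of alternatively activated macrophages. It measured 103, 89.9 and 156 TPM in untreated WT, 108, 112 and 139.8 TPM in WT after IL-4, 78.3, 74.4 and 92.2 TPM in untreated KI and 112, 56.3 and 117 TPM in KI after IL-4. KI and WT overlapped in both treatments. The genotype difference was -0.44 ± 0.19, or -0.56 relative to the median of all genes (adjusted p = 0.447). After IL-4 it differed by 0.11 with an interval of -0.30 to 0.53, higher in 4 of 6 cultures.

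*Lrp1* (chromosome 10, 127538161 to 127621148) encodes a large endocytic receptor of the LDL receptor family that binds apolipoprotein E and alpha-2-macroglobulin. Its coding sequence is the longest of the 10, with 89 exons and 4545 codons, against 69 exons and 2571 codons for *Stab1* and 335 codons for *Cd68*. Untreated WT cultures were the most even group measured for any receptor above the filter, at 103, 100.0 and 99.1 TPM, and all lay above the untreated KI cultures at 66.1, 67.0 and 92.6 TPM, as for 4.55% of genes. After IL-4 WT measured 70.9, 72.7 and 88.2 TPM and KI 81.4, 68.2 and 83.4 TPM, which overlap. The KI difference was thus -0.43 ± 0.18 when untreated (adjusted p = 0.251) and 0.01 ± 0.18 after IL-4, and the IL-4 difference -0.38 in WT and 0.06 in KI. The interaction of 0.44 ± 0.26 did not pass (adjusted p = 1.00), nor did the genotype test (adjusted p = 0.411) or the IL-4 test (adjusted p = 0.884).

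*Mertk* (chromosome 2, 128698956 to 128802894) is the receptor tyrosine kinase that binds phosphatidylserine through Gas6 and protein S. It measured 57.1, 29.4 and 30.0 TPM in untreated WT and 70.8, 42.3 and 41.7 TPM after IL-4. In KI it measured 34.4, 57.2 and 41.7 TPM untreated and 48.9, 55.8 and 53.1 TPM after IL-4. *Mertk* was higher after IL-4 in 5 of 6 cultures, with T22 at 0.976 of its untreated level, but the treated and untreated groups of each genotype overlapped. The IL-4 difference was 0.35 ± 0.21 (adjusted p = 0.949) and the genotype difference 0.15 ± 0.21 (adjusted p = 0.909), the latter 0.02 relative to the median of all genes.

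*Timd4* (chromosome 11, 46810800 to 46844332), which binds phosphatidylserine directly and marks resident macrophages of other tissues, was listed at 0 in 9 of 12 libraries. It was at 0 in all 6 untreated libraries and after IL-4 at 0.832, 0.916 and 0 TPM in WT and 0, 0.0428 and 0 TPM in KI. No fold was computed, and at an unknown depth such values cannot be told from a few reads. In the fit without the filter neither the genotype nor the IL-4 test passed (adjusted p = 0.612 and 0.867).

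*Cd68* (chromosome 11, 69664213 to 69666153) encodes macrosialin, a glycoprotein of late endosomes and lysosomes that is used as a marker of phagocytic microglia. It measured 1830.3, 2994 and 2714 TPM in untreated WT and 2624, 3670.5 and 3280.2 TPM after IL-4, and 1079, 3009.7 and 2308 TPM in untreated KI and 1971, 3239 and 3149.9 TPM after IL-4. *Cd68* was higher after IL-4 in all 6 cultures, from 1.08 times in T22 to 1.83 times in T15, which with *Cd36* made 2 of 9 receptors against 5.73% of all genes. The groups overlapped, and the IL-4 difference of 0.42 ± 0.23 did not pass (adjusted p = 0.942). With culture as a replicate block its SE was 0.09, and it came nearer the threshold without passing (adjusted p = 0.0848). The paper reports a significant rise of *Cd68* with IL-4 by RT-qPCR. By genotype *Cd68* differed by -0.27 with an interval of -0.77 to 0.23 (adjusted p = 0.798). Without T15, the KI culture with the lowest *Cd68*, the genotype difference was 0.06, so its sign rested on that culture.

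Other uptake receptors were described from a fixed list of 28, of which 16 were above the filter. For genotype 2 of the 16 fell and none rose, with a median difference of -0.37 against 0.13 over all genes, where 1.29% of genes rose and 0.357% fell. They were *Trem2* itself, which carries the knock-in, and *Itgam*, the alpha chain of complement receptor 3. *Trem2* measured 1328, 1886 and 1538 TPM in untreated WT and 325, 769.9 and 602 TPM in untreated KI, and 1190.4, 1550.0 and 1312 TPM in WT and 428, 598 and 634 TPM in KI after IL-4. All 6 KI libraries lay below all 6 WT libraries, as for 0.482% of genes (log2 difference -1.43 ± 0.19, adjusted p = 0.00763, past the threshold in 4 of 6 fits that left out a culture and in 5 of 7 other settings, without an expression filter or a variance trend being the exceptions). *Itgam* was at 111 to 173 TPM in untreated WT and 59.2 to 85.2 TPM in untreated KI (log2 difference -0.85 ± 0.16, adjusted p = 0.0408), a call that no fit leaving out a culture kept and that was also lost with culture as a block and in 3 of 6 other settings.

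With IL-4, 2 of the 16 rose and 1 fell, with a median difference of 0.14 against 0.04 over all genes, where 0.75% of genes rose and 0.143% fell. *Mrc1*, the mannose receptor, went from 2.50, 3.24 and 2.83 TPM to 15.1, 40.4 and 46.4 TPM in WT and from 0.779, 4.33 and 3.86 TPM to 20.8, 23.3 and 63.2 TPM in KI (8.63-fold in the fit, adjusted p = 0.00265). *P2ry6*, the UDP receptor that triggers microglial phagocytosis, went from 143 to 176 TPM up to 284 to 335 TPM in WT and from 45.2 to 118 TPM up to 179 to 299 TPM in KI (2.41-fold, adjusted p = 0.0132). *Cd14*, the co-receptor for lipopolysaccharide that also takes part in the clearance of dying cells, fell by 1.36 ± 0.24 on the log2 scale (adjusted p = 0.0310), from 1331 to 2415 TPM down to 429 to 704 TPM in WT and from 553 to 1197 TPM down to 226 to 461 TPM in KI. The *P2ry6* and *Cd14* calls held in only 2 of the 6 fits that left out a culture, and they were also lost with no expression filter and with no variance trend. The *Mrc1* call held in all 6 though not with no expression filter (0.0626).

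**Figure D5:**
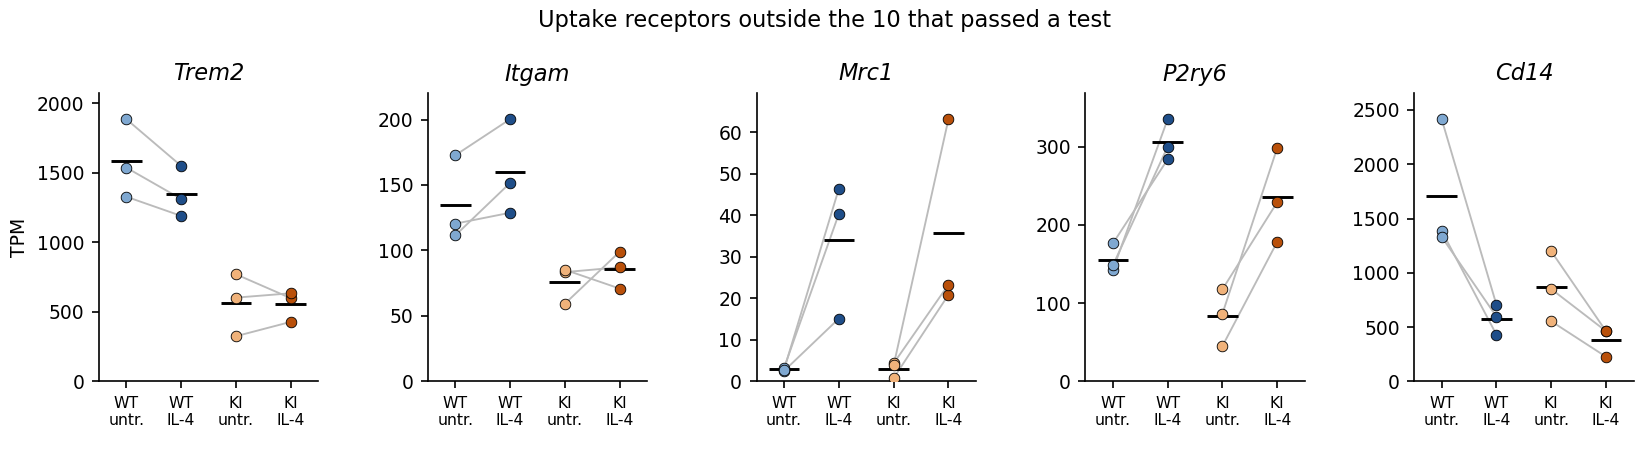
TPM (linear axes) of the 5 uptake receptors of the wider list that passed a test, by group as in the plot of the 10 receptors. Points are libraries, grey lines join the libraries of a culture and black bars are means of 3. *Trem2* and *Itgam* are lower in KI, *Mrc1* and *P2ry6* are higher and *Cd14* lower after IL-4.

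Bridging ligands, which coat cargo for these receptors, numbered 11, with 10 tested. For genotype 1 rose and 1 fell, beside the 1.29% and 0.357% of all genes. *Thbs1*, thrombospondin-1, a ligand of *Cd36*, was at 14.2 to 37.7 TPM in untreated WT and 47.3 to 94.4 TPM in untreated KI (2.65-fold, adjusted p = 0.0369), a call held in 1 of 6 fits leaving out a culture and in 2 of 7 other settings. It was also higher where *Acta2* and *Tagln*, markers of contractile mural and fibroblast cells, were higher, and their part in it was not tested. *C1qb*, a chain of complement C1q, fell in KI (log2 difference -0.74 ± 0.13, adjusted p = 0.0316) from 4815 to 4959 TPM in untreated WT to 2141 to 3244 TPM in untreated KI, a call held in 2 of 6 fits leaving out a culture and 4 of 7 other settings. With IL-4 *C1qa* rose 1.73-fold (adjusted p = 0.0391), a call held in 2 of 6 and 3 of 7 of these fits, and 9 of the 10 ligands had a difference above 0, as 55.8% of all genes had. *C1qb* did not pass for IL-4 (adjusted p = 0.128) but did with culture as a block (0.00168). *C1qa* and *C1qb* are also on the microglia marker list.

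In the lists of partner genes no member passed either test in limma, which at 1.65% and 0.893% of all genes called is no result about lists of this size. They held 3 inhibitory uptake signals above the filter, 16 genes of the engulfment machinery, 5 chaperones and sheddases of the receptors, 13 lysosomal partners, 8 lipid handling genes and 10 regulators. Their median genotype differences were -0.50, 0.02, 0.02, -0.05, 0.13 and -0.11, and their median IL-4 differences 0.08, 0.02, 0.32, 0.25, 0.22 and 0.12. The most abundant gene of each was *Sirpa*, the receptor of the do-not-eat-me signal CD47, at 317 to 977 TPM over the 12 libraries, *Rac1*, a GTPase of the phagocytic cup, at 489 to 644 TPM, the chaperone *Hsp90b1* at 205 to 382 TPM, the lysosomal protease *Ctsd* at 16864 to 34659 TPM, lipoprotein lipase *Lpl* at 954 to 3022 TPM and the transcription factor *Cebpb* at 308 to 564 TPM. Of these *Lpl* had the genotype difference nearest the threshold (-0.64 ± 0.16, adjusted p = 0.117).

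Genes with the pattern most like each receptor were sought over the 12 libraries by Pearson's r of log2(TPM + 1), as a description. *Cd36* ran closest to the chemokine gene *Ccl9* (r = 0.943) and to *Tmem26* (r = 0.940). *Msr1* ran closest to *Pfn1* (r = 0.955) and *Tm6sf1* (r = 0.953), and *Cd68* to *Cyba* (r = 0.962) and *Ctsz* (r = 0.956). For *Mertk* the nearest were *Atp13a2* (r = 0.902) and *Ilvbl* (r = 0.892), and for *Scarb1* *Fam117b* (r = 0.900) and *Mbd2* (r = 0.860). *Stab1* was nearest to *Reep4* (r = 0.890) and *Tspan33* (r = 0.874), *Marco* to *Tmem37* (r = 0.870) and *Limk1* (r = 0.825), *Scarb2* to *Uap1* (r = 0.855) and *Psma2* (r = 0.824), and *Lrp1* to *Kansl1* (r = 0.843) and *Aldh3b1* (r = 0.828). Among the receptors themselves the highest r was between *Msr1* and *Cd68* at 0.63, or 0.83 for deviations from the group means, and the lowest between *Cd36* and *Scarb2* at -0.63, which turned to 0.22 once group means were taken out. The libraries share cultures, groups and cell composition, and no p is given.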

How the data were processed

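RNA-seq libraries of 6 microglial cultures, each untreated and after IL-4, were analysed. Before deposit the authors used Trim Galore for adapter trimming, Salmon with ENSEMBL GRCm38 for quantification and tximport for gene summaries, and versions are not given in the sources used here. The deposited unit is TPM, which keeps no read depth, so precision is described by the spread between libraries only. Per the study, the 3 libraries of a group came from separate mice.

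Identifiers were matched to GENCODE annotation of GRCm38, which named 48350 of 48623 genes. Values were taken as log2(TPM + 1), so fold changes of low genes are understated, and genes with a mean above 1.5 were fitted with limma 3.58.1 (R 4.3.3, eBayes with a variance trend) on genotype, IL-4 and their interaction over all 12 libraries, with moderated F-tests and Benjamini-Hochberg adjustment over the 11204 genes tested. Read counts, with which the authors ran DESeq2, were not analysed here. Python 3.11.15 (numpy 2.4.6, pandas 2.3.3) produced the summaries. Promoter windows came from RefSeq (GRCm38.p6).

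The receptors and gene lists were chosen with earlier results of these data known. Genes were named by a rule: the 10 receptors, *Trem2*, every gene of the other lists past a threshold or else the most abundant, and the 2 most alike genes per receptor. Outside this rule *P2ry12*, *Siglech*, *Lyve1*, *Cd163*, *Pf4*, *F13a1*, *Cldn5* and *Tek* are named to describe their marker lists. *Gfap* and *Tubb3*, the most abundant of marker lists without a call, are given without values. Of the cell type markers past a threshold, *Aif1*, *Csf1r*, *Fcrls*, *Cx3cr1*, *Ms4a7*, *Flt1*, *Olig1*, *Acta2*, *Cnn1* and *Tagln* are given without values. Alternatives were a pseudocount of 0.1, no filter, a filter at 3, quantile and median-ratio scaling, no variance trend, culture as a replicate block, other contrasts and leaving out each culture. Scaling to an equal microglial marker sum was added after seeing the data. A member of the IL-4 check list is not reported here.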

Additional observations from a re-analysis of the deposited data

How the results depend on the processing

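All 185 genotype calls and 100 IL-4 calls rest on 3 cultures per genotype. Genotype calls numbered 16 with no expression filter, 26 with no variance trend, 575 by the 1-coefficient test, 102 in untreated libraries alone, 2 after IL-4 alone and 1605 with an equal microglial marker sum (chosen after seeing the data), and 3 to 191 without a culture, the lowest without T33. IL-4 calls numbered 61, 50 and 151 under the first 3 of these, 64 in WT alone, 45 in KI alone, 61 with an equal marker sum and 46 to 143 without a culture. Interaction calls numbered 4 with no filter. The share of genotype calls that were higher in KI was 78.4%, and it was 61.6% under quantile normalization, 59.2% under median-ratio scaling, 56.3% with no filter, 92.3% with no variance trend and 99.4% with an equal marker sum. With culture as a replicate block, 77 genes were called for genotype and 240 for IL-4. Libraries of a culture correlated in their deviations from group means at 0.0792 to 0.378. In every culture but T22 this was above the value with another culture of its genotype. T22 correlated at 0.121 within itself and at 0.188 with another culture, so the number is not shown to pair the libraries in every culture. The block changed no call of the 10 receptors, though the IL-4 adjusted p of *Cd68* went from 0.942 to 0.0848. Under the block *Itgam*, *Thbs1*, *Csf1r*, *Fcrls*, *Cnn1* and *Olig1* lost their genotype calls and *C1qb* and *Fcrls* gained an IL-4 call. Of the 10 receptors, 1 was called for genotype by the 1-coefficient test (*Msr1*) and 1 with an equal marker sum (*Scarb2*), and 0 for IL-4 with no filter or with an equal marker sum.

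Signs turned, in values that never passed the threshold, as follows. For genotype, *Mertk* was -0.025 under quantile normalization, *Marco* was -0.23 under quantile normalization, -0.092 under median-ratio scaling and -0.29 after IL-4 alone, and *Lrp1* was 0.0086 after IL-4 alone. The median of all genes was itself -0.063 under quantile normalization and -0.010 under median-ratio scaling. With an equal marker sum the genotype differences were 0.22 for *Cd36*, 0.43 for *Scarb1*, 0.14 for *Stab1*, 0.36 for *Lrp1* and 0.31 for *Cd68*. The median of all genes moved to 0.67 on that scale. Relative to it these differences stayed below 0, in the same order at -0.46, -0.24, -0.53, -0.31 and -0.36. For IL-4, *Scarb1* was 0.018 in WT alone, and *Marco* was -0.19 and *Lrp1* 0.058 in KI alone. With an equal marker sum the IL-4 differences were -0.0037 for *Mertk*, -0.20 for *Marco* and -0.24 for *Stab1*. The median of all genes moved to -0.29 there, and relative to it they stayed above 0, at 0.29, 0.094 and 0.049. The interaction of *Msr1* was 0.077 under quantile normalization and 0.073 under median-ratio scaling, and with an equal marker sum the interactions were -0.19 for *Cd36*, -0.14 for *Stab1* and -0.0997 for *Cd68*. Without a culture in turn, the genotype difference ranged from -0.31 to 0.49 for *Marco*, -0.26 to 0.026 for *Scarb1* and -0.49 to 0.057 for *Cd68*. The IL-4 difference ranged from -0.15 to 0.057 for *Msr1* and -0.23 to 0.35 for *Marco*. The interaction ranged from -0.16 to 0.26 for *Cd36*, -0.23 to 0.18 for *Msr1*, -0.10 to 0.35 for *Stab1* and -0.085 to 0.30 for *Cd68*. The causes were not tested.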
